A study of Mus musculus with 16 samples.

Results

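The regions described here are the accessible chromatin regions of the MHC class II part of the major histocompatibility complex and of the surroundings of Ciita, measured by ATAC-seq, which reads DNA that the transposase Tn5 can reach. A region belonged to the set when it lay wholly within chr17:34100000-34560000, called the class II window, or chr16:10430000-10580000, called the Ciita window, in the mm9 build of the mouse genome. The rule used no measured value. It found 340 of the 250313 regions of the series, 279 in the class II window and 61 in the Ciita window, and no region crossed an edge of either. Every region is 500 bp long. There was 1 region for every 1.65 kb of the class II window and 1 for every 2.46 kb of the Ciita window.

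The libraries came from medullary epithelial cells of the thymus (mTECs) of C57BL/6 mice aged 4 weeks, with 60000 sorted cells in each reaction, as the labels state. Live cells without CD45 and with EpCAM, UEA binding and low Ly51 were divided by their surface MHC class II, with mTEChi the high and mTEClo the low fraction. There were 8 groups of 2 libraries: wild-type Aire+/+, Aire-knockout Aire-/-, wild-type Brg1+/+ and Brg1-knockout Brg1-/- cells, each as mTEChi and as mTEClo. The library names of Brg1+/+ begin with NOCRE, and the driver and cell type of a Cre are not given in the sources used here. Aire is a nuclear regulator through which mTECs transcribe many genes of peripheral tissues, and Brg1 is the motor subunit of SWI/SNF complexes, which remodel nucleosomes. The labels do not name the mice behind each library, so a p-value here covers only the spread between libraries, which may be technical.

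MHC class II molecules are alpha and beta chain pairs that show peptides to CD4+ T cells. In the medulla they present self peptides, which removes or diverts self-reactive T cells. Ciita is the class II transactivator: it does not bind DNA itself but joins a protein assembly on the X and Y boxes in front of class II genes. The class II stretch of mouse chromosome 17 holds, in RefSeq order, H2-Oa (part of an inhibitor of peptide loading), Brd2 (a chromatin reader of acetylated histones), H2-DMa, H2-DMb2 and H2-DMb1 (the peptide exchange factor), and Psmb9, Tap1, Psmb8 and Tap2 (proteasome subunits and the peptide transporter of the class I pathway). After these come H2-Ob (the partner of H2-Oa) and the chains H2-Ab1, H2-Aa, H2-Eb1 and H2-Eb2. The sort marker is the protein product of class II chains of this locus, so the windows carry genes behind the gate, along with others. In the same order H2-K1 (class I), Ring1, H2-Ke6, Slc39a7, Rxrb and Col11a2 stand before H2-Oa, and Btnl2 and Btnl1 after H2-Eb2. Tvp23a stands before Ciita, and Dexi and Clec16a after it. A region of the windows thus need not belong to a class II gene or to Ciita. The regions were not linked to single genes, because the annotation at hand belongs to another assembly than mm9. They are given by position and by distance from the start of their window. For the same reason genotype and cell type rest on the labels, and markers of other cell types were not analysed here.

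RefSeq promoter sequences of GRCm38.p6, 250 bases before to 50 after each gene start, were looked for in 16 genes. These were H2-K1, the genes listed from H2-Oa to H2-Eb2, and Ciita. Sequences were found for 13 of them, and H2-Ab1, Tap2 and Ciita are named only. The Y box core TGATTGG was present on either strand in a promoter of 10 of these 13 genes, against 7.82% of 32851 promoters of 27025 genes. The longer CTGATTGG, which contains it, was present in 7 against 4.1%. Psmb9 and Tap1 lie head to head and hold the same site, which counts for both. Counts are by gene, over all its promoters, and shares are by promoter. AACNNATG, the end of an X box, was found in 6 of the 13 genes and in 8.86% of promoters. On the gene's own strand, AACNNATG followed within 40 bases by TGATTGG was found in 14 of the 32851 promoters (0.043%), and 5 of the 14 belong to the genes shown next. TGATTGG, AACNNATG and their order were chosen after these promoters had been read, so the counts are a description. Capitals mark AACNNATG and TGATTGG in 100 bases read 5′ to 3′ on the strand of the gene, and the positions are in GRCm38.p6, not in the build of the regions.
H2-DMb2, GRCm38.p6 chr17:34145087-34145186, plus strand: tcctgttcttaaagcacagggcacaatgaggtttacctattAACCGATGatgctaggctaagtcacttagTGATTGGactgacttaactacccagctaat
H2-DMb1, GRCm38.p6 chr17:34153058-34153157, plus strand: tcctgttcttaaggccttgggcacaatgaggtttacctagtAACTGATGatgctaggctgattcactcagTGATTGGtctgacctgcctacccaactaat
H2-Ob, GRCm38.p6 chr17:34238776-34238875, plus strand: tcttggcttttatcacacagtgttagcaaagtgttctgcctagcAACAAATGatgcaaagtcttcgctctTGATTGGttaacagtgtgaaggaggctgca
H2-Eb1, GRCm38.p6 chr17:34305736-34305835, plus strand: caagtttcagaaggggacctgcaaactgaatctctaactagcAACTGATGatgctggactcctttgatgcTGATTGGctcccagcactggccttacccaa
H2-Eb2, GRCm38.p6 chr17:34325503-34325602, plus strand: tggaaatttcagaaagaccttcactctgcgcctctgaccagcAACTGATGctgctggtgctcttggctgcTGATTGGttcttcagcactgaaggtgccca
Between the marked pieces lie 21 bases in H2-DMb2 and in H2-DMb1, 20 in H2-Eb1 and in H2-Eb2, and 18 in H2-Ob. The next 3 promoters hold TGATTGG without AACNNATG in front of it, and are shown for H2-Aa, a class II chain, H2-Oa and Psmb9.
H2-Aa, GRCm38.p6 chr17:34287844-34287943, minus strand: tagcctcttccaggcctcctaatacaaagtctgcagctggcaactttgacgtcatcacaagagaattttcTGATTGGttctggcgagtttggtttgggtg
H2-Oa, GRCm38.p6 chr17:34092264-34092363, plus strand: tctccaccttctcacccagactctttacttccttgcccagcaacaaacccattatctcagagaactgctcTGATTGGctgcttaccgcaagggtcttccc
Psmb9, GRCm38.p6 chr17:34187311-34187410, minus strand: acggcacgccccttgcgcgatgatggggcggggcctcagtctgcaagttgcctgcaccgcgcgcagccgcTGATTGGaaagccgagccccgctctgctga
The planned pieces ACAGATG and GGNNTTNCC (a kappaB site) were found on either strand in 2 and 7 of the 13 genes, against 5.01% and 15.96% of promoters. Brd2 and H2-DMa share the same GGNNTTNCC site, which counts for both. GAAANNGAA, an interferon-stimulated element, was found in 0 of them, against 8.56%. A match is a run of letters and shows no binding, and none of these promoters was matched to a region.

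The signal is the authors' value per region and library, and levels are means of log2(signal + 1). The 2 windows were well covered: 237 of the 340 regions had a mean signal above the median of all regions (14.2), and 18 were in the top 1% of the series. Between the libraries of a group, Pearson's r over the 340 regions ran from 0.685 in Aire+/+ mTEChi to 0.901 in Aire-/- mTEChi. A 0 was listed for 13 of their values, in 3 libraries (replicate 2 of Aire+/+ mTEChi, Aire+/+ mTEClo and Aire-/- mTEClo). Depth is unknown, because the values are not counts.

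On the deposited scale both windows were more accessible in mTEChi than in mTEClo in each genotype, and the libraries of the sorts did not overlap. Re-centring each library on its median, given in the last section, removed most of the difference in Brg1-/- in both windows. In the class II window the level in the Aire+/+ libraries was 5.35 and 4.87 in mTEChi against 4.09 and 4.13 in mTEClo. In Aire-/- it was 5.30 and 5.81 against 4.06 and 3.97. In Brg1+/+ it was 4.80 and 4.56 against 3.72 and 3.69, and in Brg1-/- 4.38 and 4.91 against 3.80 and 3.76. The lowest of the 8 mTEChi libraries, a Brg1-/- library at 4.38, thus stood above the highest mTEClo library, an Aire+/+ library at 4.13. The Ciita window showed the same order, with mTEChi libraries from 4.58 to 5.09 and mTEClo libraries from 3.63 to 4.25. Levels over all regions overlapped between the sorts only across genotypes, with mTEChi from 3.83 to 4.33 and mTEClo from 3.42 to 3.99. Within each genotype mTEChi was above mTEClo over all regions too, with 4.11 and 4.21 against 3.98 and 3.99 in Aire+/+. In Aire-/- these levels were 4.12 and 4.10 against 3.99 and 3.98. In Brg1+/+ they were 3.83 and 4.04 against 3.51 and 3.42, and in Brg1-/- 4.10 and 4.33 against 3.48 and 3.58. The stretch of equal length just after each window also kept all 8 mTEChi libraries above all 8 mTEClo libraries. It had 4.05 to 4.68 against 3.22 to 3.85 after the class II window and 4.12 to 4.59 against 2.86 to 3.55 after the Ciita window. In a bulk library, more cells with an open region and more opening per cell cannot be told apart.

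**Figure D1:**
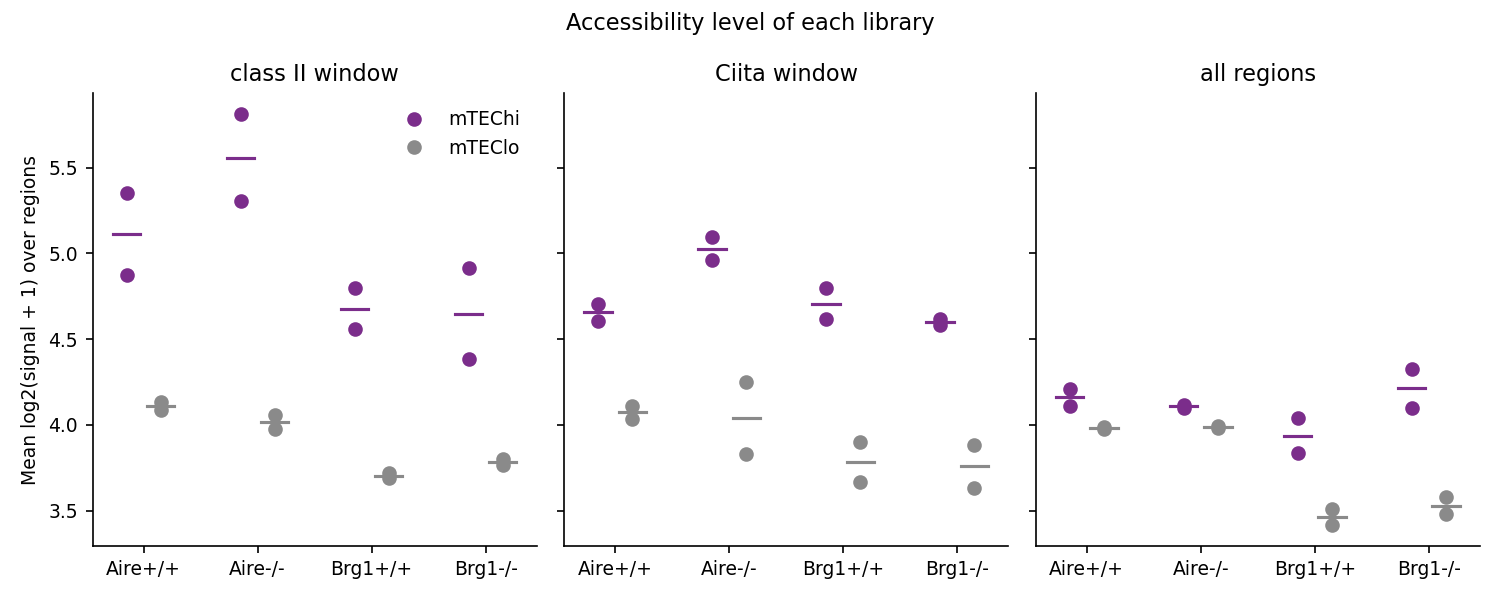
Mean log2(signal + 1) of each library over the regions of the class II window, of the Ciita window and of all regions, by genotype, for mTEChi (purple) and mTEClo (grey); points are libraries and lines are means of 2. In both windows every mTEChi library lies above every mTEClo library. Over all regions the sorts overlap across genotypes but not within any of them. The stretches just after the windows, not drawn, also keep every mTEChi library above every mTEClo library. The values are not re-centred.

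The difference of the windows was also set beside the shift of all regions with the sort. The median log2 fold change of mTEChi against mTEClo over all tested regions was 0.16 in Aire+/+, 0.096 in Aire-/-, 0.42 in Brg1+/+ and 0.62 in Brg1-/-. The class II window had medians of 0.98, 1.62, 0.88 and 0.85 over its 266 tested regions, which is 0.82, 1.52, 0.46 and 0.23 above all regions. The Ciita window had medians of 0.51, 0.95, 0.95 and 0.81 over its 60, which is 0.35, 0.85, 0.54 and 0.19 above all regions. By these medians, measured against the rest of the genome, both windows stood out most in Aire-/- cells and least in Brg1-/- cells. These differences between genotypes were not tested as such for the windows as a whole.

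In region by region tests 59 of the 326 tested regions were higher in mTEChi in Aire+/+ and 2 lower, 119 and 2 in Aire-/-, 58 and 2 in Brg1+/+, and 38 and 2 in Brg1-/- (limma, adjusted p under 0.05 over all 225281 tested regions). In the class II window the higher calls came to 49, 104, 49 and 26 of 266, or 18.4%, 39.1%, 18.4% and 9.77%. In the Ciita window they came to 10, 15, 9 and 12 of 60, or 16.7%, 25%, 15% and 20%. Over all regions tested the share called was 8.79%, 11.4%, 13% and 8.11% in either direction, and 5.14%, 7.15%, 9.21% and 6.61% higher and 3.65%, 4.22%, 3.75% and 1.5% lower in mTEChi. In Brg1-/- the share called higher in the class II window was therefore near that of all regions, while the 20% of the Ciita window was above it. With each library re-centred on its median, the split in Brg1-/- turned round, from 38 higher and 2 lower to 6 and 21, while all regions went from 14885 and 3383 to 3117 and 12827. The same step gave 28 higher and 9 lower in Brg1+/+, 31 and 4 in Aire+/+, and 90 and 2 in Aire-/-. In these 3 genotypes most calls in the windows thus stayed on the mTEChi side. Over all regions it gave 9491 higher and 15441 lower in Brg1+/+, 6585 and 12735 in Aire+/+, and 12078 and 11333 in Aire-/-. Quantile normalization gave 8 higher and 5 lower in Brg1-/-, against 3392 and 6194 over all regions. Of the 61, 121, 60 and 40 calls in Aire+/+, Aire-/-, Brg1+/+ and Brg1-/-, 13, 29, 16 and 3 were kept whichever of the 4 libraries of the genotype was left out. The counts themselves fell to between 23 and 45, 34 and 69, 24 and 31, and 8 and 24, the lowest without Aire+/+ mTEClo replicate 2, Aire-/- mTEChi replicate 2, Brg1+/+ mTEClo replicate 2 and Brg1-/- mTEChi replicate 2.

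**Figure D2:**
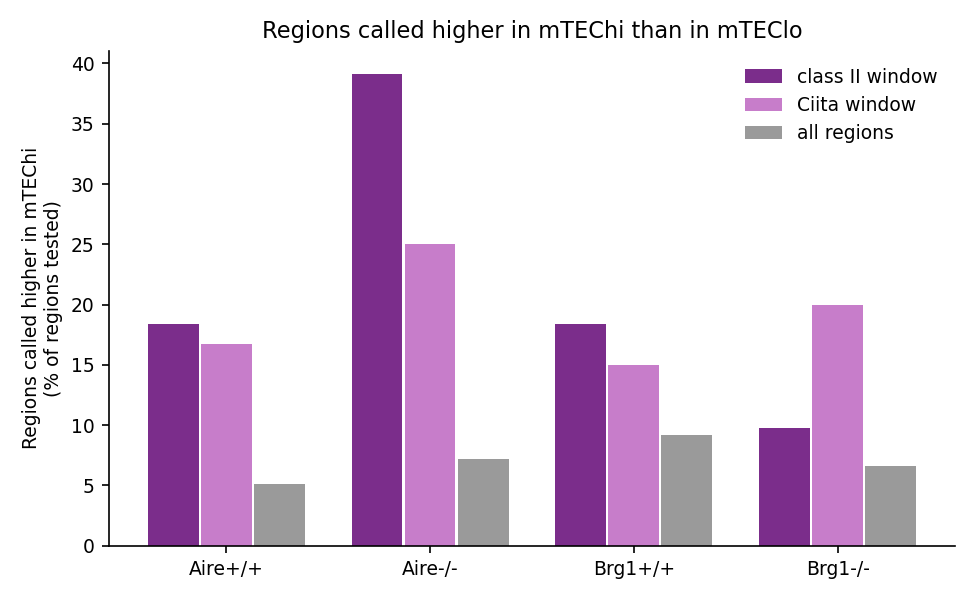
Share of tested regions called higher in mTEChi than in mTEClo (limma, adjusted p under 0.05), as a percent on an axis from 0, for the class II window, the Ciita window and all regions in each genotype. The class II bars are 18.4%, 39.1%, 18.4% and 9.77% against 5.14%, 7.15%, 9.21% and 6.61% for all regions; after re-centring on the median most calls in Brg1-/- were lower instead.

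Higher calls were shared between genotypes. In all, 152 of the 326 tested regions were called higher in 1 or more genotypes, against 16.7% of all regions. The 2 wild types shared 29 regions, 49.2% of the Aire+/+ list and 50.0% of the Brg1+/+ list, and 2.99% of all regions were called in both. Over all regions the shared calls made up 58.3% of the Aire+/+ list and 32.5% of the Brg1+/+ list. In all 4 genotypes 14 regions were called higher, 11 in the class II window and 3 in the Ciita window, against 1.34% of all regions. Re-centring left 2 of these 14 called in all 4, quantile normalization 4 and cyclic loess normalization 6. Without any call, all 8 mTEChi libraries lay above all 8 mTEClo libraries in 22 of the 266 tested class II regions (8.27%) and in 9 of the 60 tested Ciita regions (15%), against 5.15% of all regions. The opposite, all 8 below all 8, was found in 0 class II and 1 Ciita region, against 1.93%.

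The clearest class II example was chr17:34510065-34510564, 410.1 kb into the window, which kept its call in all 4 genotypes under all 3 of those scalings. Its signal was 170.1 and 144.4 in Aire+/+ mTEChi against 16.5 and 27.8 in mTEClo, and 158.7 and 222.9 against 9.54 and 12.6 in Aire-/-. It was 66.3 and 74.8 against 9.76 and 12.6 in Brg1+/+, and 77.8 and 72.0 against 12.8 and 9.29 in Brg1-/-. No mTEChi library came near an mTEClo one, and the Aire-line mTEChi libraries all stood above those of the Brg1 line. The log2 fold changes were 2.81, 3.98, 2.56 and 2.67, each with an SE of 0.45, with limma adjusted p of 0.000112, 8.31e-07, 0.000288 and 0.000441. All 4 calls held whichever library of the genotype was left out.

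In the Ciita window chr16:10495965-10496464, 66.0 kb from its start, behaved alike and also kept its 4 calls under the 3 scalings. It had 99.1 and 142.4 in Aire+/+ mTEChi against 15.5 and 11.5 in mTEClo, and 85.9 and 108.9 against 16.2 and 10.7 in Aire-/-. It had 92.1 and 110.5 against 10.4 and 14.2 in Brg1+/+, and 45.0 and 75.1 against 7.69 and 12.1 in Brg1-/-. All 8 mTEChi libraries were above all 8 mTEClo libraries, and the lowest of the 8 was a Brg1-/- library. Log2 fold changes were 3.06, 2.78, 2.95 and 2.47 (SE 0.49), with limma adjusted p of 0.000115, 0.000286, 0.000161 and 0.00212. All 4 calls held without any 1 library, the weakest in Brg1-/- (limma adjusted p up to 0.0485). A further Ciita region, chr16:10460206-10460705, ranged from 75.8 to 182.9 in mTEChi (median 87.9) and from 9.86 to 21.8 in mTEClo (median 12.9). Its log2 fold changes were 2.83, 3.13, 3.03 and 2.26, and under re-centring it was called in 3 genotypes. Its call in Brg1-/- was also lost without Brg1-/- mTEClo replicate 1 (1.77, limma adjusted p 0.0726). The largest mean difference of the window was at chr16:10569932-10570431, with 25.8 to 53.7 in mTEChi and 1.13 to 12.5 in mTEClo. It was called in all 4 genotypes but in 2 under each of the 3 scalings, and in each genotype the call was lost without 1 or more single libraries, among them mTEClo replicate 2 in all 4.

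The largest mean difference of the class II window, at chr17:34463668-34464167, had one weak group. Its signal was 62.2 and 121.0 in Aire+/+ mTEChi against 4.56 and 13.9 in mTEClo, and 115.1 and 205.1 against 11.7 and 6.72 in Aire-/-. It was 84.5 and 62.9 against 6.86 and 2.93 in Brg1+/+, and 7.76 and 47.9 against 2.91 and 2.75 in Brg1-/-. The first Brg1-/- mTEChi library thus lay among the mTEClo values of the Aire line. The log2 fold changes were 3.27, 3.97, 3.73 and 2.43 (SE 0.70), called in all 4 genotypes, with a limma adjusted p of 0.0276 in Brg1-/-. That last call was lost without Brg1-/- mTEChi replicate 2 (1.19, limma adjusted p 0.401) or either mTEClo library, and under each of the 3 scalings. The Aire+/+ call was lost without mTEChi replicate 2 or mTEClo replicate 1 (limma adjusted p up to 0.0711). Its neighbour at chr17:34464198-34464697 showed 11.4 to 114.7 in the 8 mTEChi libraries and 1.21 to 9.30 in the 8 mTEClo libraries. Region chr17:34551561-34552060, 451.6 kb in, showed 23.4 to 113.2 against 1.34 to 18.5. Both were called in all 4 genotypes, and in 2 and 1 of them after re-centring. In both regions the Aire+/+ call held whichever library was left out, and the calls in the other 3 genotypes each depended on 1 or more libraries.

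Some large differences were called in 1 line only or in 1 genotype only. Region chr17:34508941-34509440 had the largest change in Aire+/+, from 6.87 and a listed 0 in mTEClo to 54.5 and 56.6 in mTEChi (log2 fold change 4.33, SE 0.83, limma adjusted p 0.000881). Without the mTEClo library at 0, replicate 2, it was 2.85 and not called (limma adjusted p 0.0835). It was called in Aire-/- too (3.61), though not without mTEChi replicate 2 or mTEClo replicate 1 of that genotype, but had values of 1.83 and 1.37 that were not called in Brg1+/+ and Brg1-/-. Region chr17:34478581-34479080 had the largest change in Brg1+/+, from 0.373 and 0.621 to 33.1 and 17.8 (4.08, SE 0.74, limma adjusted p 0.000448). In Aire+/+ it stood at 7.14 and 8.33 in mTEClo and 12.1 and 13 in mTEChi, which was not called (0.64). This region was called in no genotype but Brg1+/+. Region chr17:34403274-34403773 was called in Aire+/+ only (3.44), with 50.7 and 23.0 in mTEChi against 3.81 and 1.2 in mTEClo. Without mTEChi replicate 1 or mTEClo replicate 2 it was not called (limma adjusted p up to 0.127). In Brg1+/+ the same region had 6.25 and 2.25 in mTEChi against 9.09 and 6.17 in mTEClo, which was not called (-0.81). The difference of a sort effect between the Aire and Brg1 lines was not tested for these regions.

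On the deposited scale the brightest regions changed less. The 99th percentile of signal was close in all 16 libraries, at 213.7 to 217.3, while their medians ran from 8.51 to 19.8. The scaling behind this is not given, and whether it keeps the change of bright regions small was not tested. Medians by signal class were not taken over all regions. The highest mean signal of the set, 425.7 at chr17:34432954-34433453, went with values from 342.0 to 668.8 in mTEChi and from 368.3 to 434.9 in mTEClo, and the sorts overlapped. Among the 17 class II regions in the top 1% of the series the medians of the log2 fold change were 0.36, 0.59, 0.25 and -0.020 in Aire+/+, Aire-/-, Brg1+/+ and Brg1-/-. Among the 141 between the 50th and 90th percentile they were 1.21, 2.05, 1.19 and 1.09. Region chr17:34398421-34398920 had 330.6 to 573.1 in mTEChi and 218.8 to 301.4 in mTEClo, without overlap, and was called in all 4 genotypes (0.78, 0.66, 1.05 and 0.55, SE 0.16). Its value in Brg1-/- was below the median of all regions there, and re-centring ended its call in all 4 genotypes, with a value of -0.21 in Brg1-/-. The Brg1-/- call was lost without any 1 of its 4 libraries, the Aire+/+ call without mTEClo replicate 2, and the Aire-/- call without replicate 2 of either sort. Region chr17:34484475-34484974, picked after its values were seen, had 551 and 463 in Aire+/+ mTEChi against 205 and 169, and 478 and 689 against 192 and 190 in Aire-/-. It had 385 and 367 against 166 and 163 in Brg1+/+, and 259 and 323 against 228 and 178 in Brg1-/-. It was called in the first 3 genotypes (1.43, 1.58 and 1.19, SE 0.18) and not in Brg1-/- (0.52, limma adjusted p 0.0671).

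Other bright regions held their level across all 8 groups on the deposited scale, in which the top of the signal range hardly differed between libraries. By the smallest spread of the group means, the steadiest region of the class II window was chr17:34289811-34290310, with 261.5 to 377.6 in mTEChi and 266.1 to 367.8 in mTEClo. The steadiest of the Ciita window was also its brightest, chr16:10543002-10543501, with 228.5 to 348.0 in mTEChi and 218.4 to 304.9 in mTEClo. Its log2 fold changes of 0.22, 0.057, 0.25 and 0.14 were not called.

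**Figure D3:**
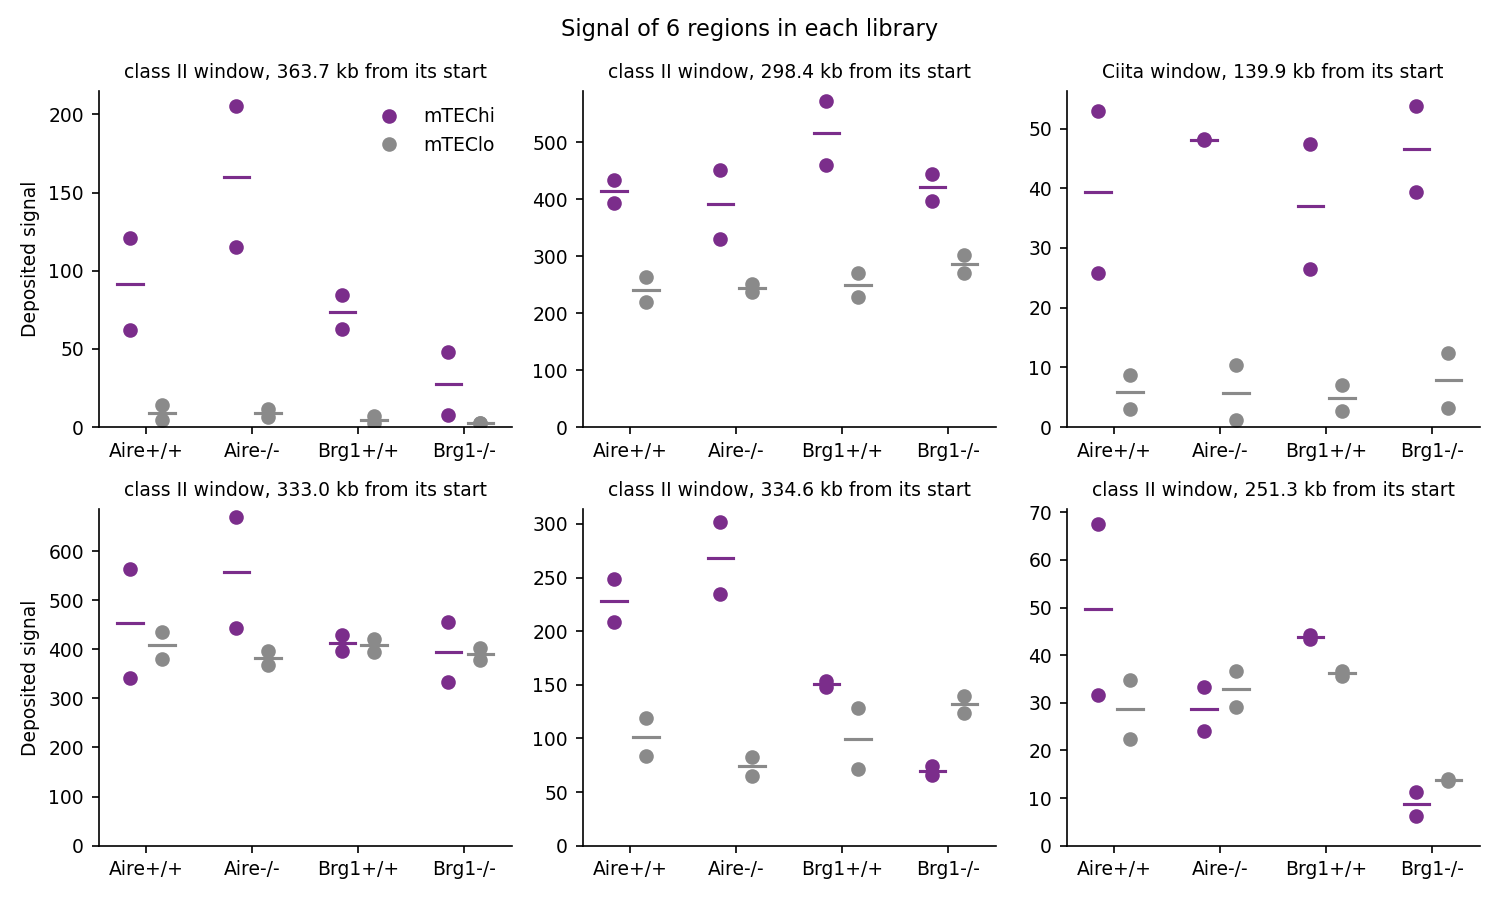
Deposited signal of 6 regions in each of the 16 libraries, on linear axes from 0, by genotype, for mTEChi (purple) and mTEClo (grey); lines are means of 2 libraries, and each title gives the distance from the start of the window. The first 3 panels are called higher in mTEChi in all 4 genotypes, though after re-centring on the median the second in none and the others in fewer; the fourth is the brightest region, with overlapping sorts, and the last 2 are lower in the Brg1-/- mTEChi libraries than in the Brg1+/+ ones.

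The higher calls were not spread evenly along the class II window. Limits at 100, 220, 280, 420 and 460 kb were set after looking at the profile, so the following is a description. In the first 100 kb, 34 tested regions held 1, 2, 1 and 0 higher calls in Aire+/+, Aire-/-, Brg1+/+ and Brg1-/-, with medians of 0.50, 0.58, 0.24 and 0.37. From 100 to 220 kb, 71 regions held 10, 16, 13 and 6 higher calls, with medians of 1.03, 1.09, 1.00 and 0.91. From 220 to 280 kb, 23 regions held 2, 2, 3 and 1, with medians of 0.39, 0.34, 0.50 and 0.44. From 280 to 420 kb, 126 regions held 34, 79, 31 and 18, with medians of 1.23, 2.21, 1.13 and 1.15. From 420 to 460 kb, 12 regions held 2, 5, 1 and 1, with medians of 0.57, 1.48, 0.74 and 0.63. No 500 bp region of the set lay between 80 and 100 kb. Medians in Aire-/- were thus above those of the other genotypes in every stretch but that from 220 to 280 kb, most clearly in the last 2. From 280 to 420 kb the mean level of 2 libraries was 6.05 in Aire-/- mTEChi against 5.25 in Aire+/+ mTEChi. In mTEClo the levels of the 2 genotypes there were 3.89 and 3.95. Levels of single libraries are not given for this stretch. Over the whole window the mTEChi libraries of the 2 genotypes overlapped.

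**Figure D4:**
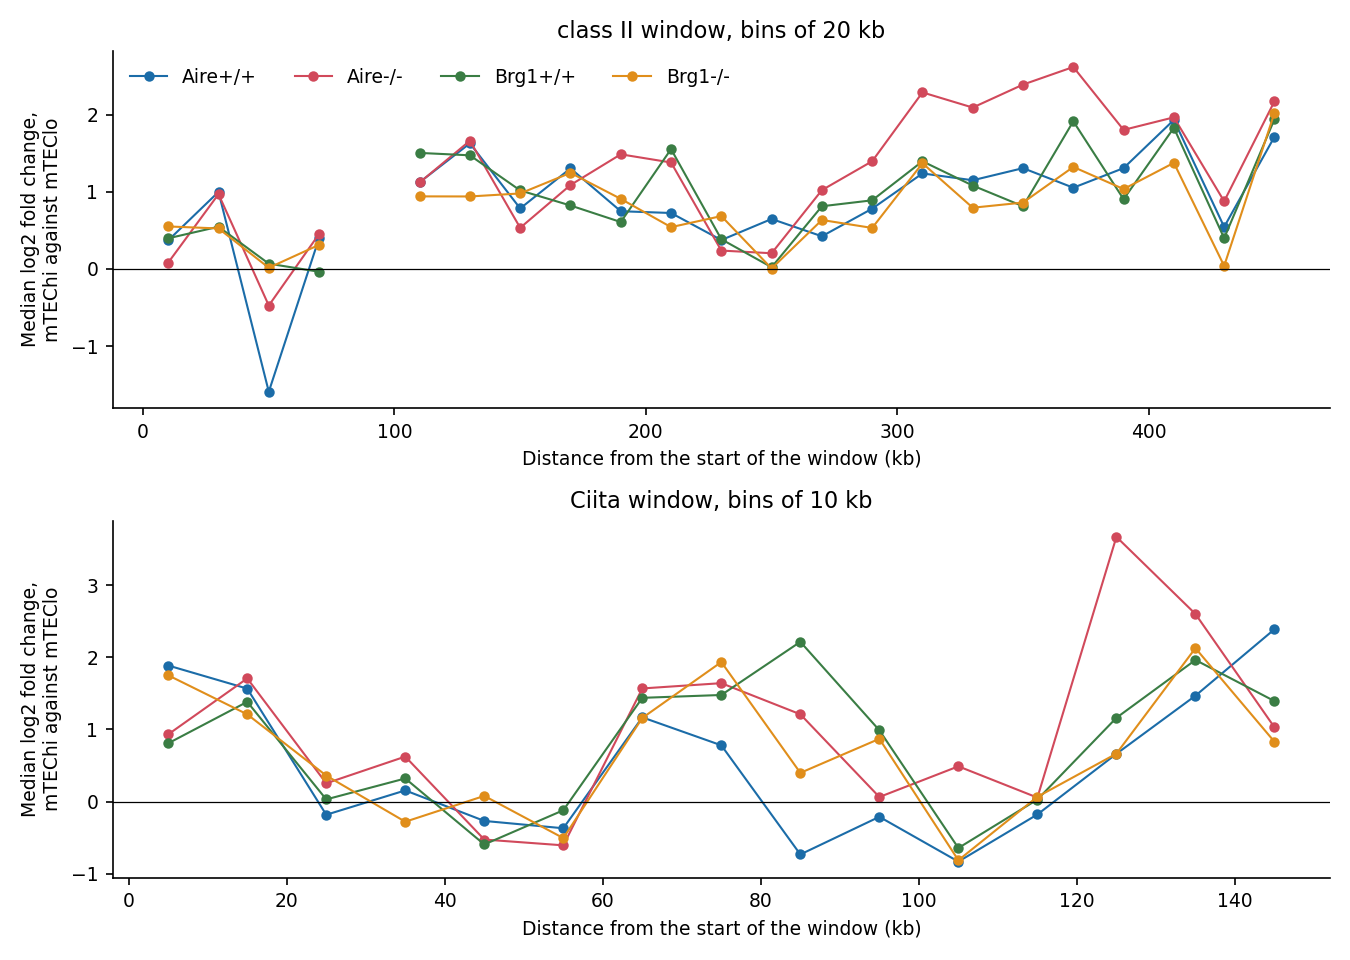
Median log2 fold change of mTEChi against mTEClo over the tested regions of each bin, against distance from the start of the window in kb, for 4 genotypes (20 kb bins in the class II window above, 10 kb bins in the Ciita window below); bins hold 1 to 26 tested regions, and the gap is a bin without regions. All 4 lines of the class II window are above 0 in every bin with regions except those that start at 40 and 60 kb. The Aire-/- line is highest from 280 kb on, and in some bins before. The values are not centred on the median of all regions.

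Flanks of the same length as each window were counted in the same way. The regions in the flank before the class II window were called higher in 3, 3, 3 and 2 of 70 cases (4.29%, 4.29%, 4.29% and 2.86%), under the share of all regions. Those in the flank after it were called higher in 5, 8, 15 and 4 of 82 (6.1%, 9.76%, 18.3% and 4.88%). In Brg1+/+ this was about the share of the window itself (18.4%), and in Brg1-/- the median of that flank, 0.97, was above the 0.85 of the window. The flank after the Ciita window had higher calls in 5, 6, 8 and 8 of 39 (12.8%, 15.4%, 20.5% and 20.5%), and its medians of 0.76, 1.16, 1.35 and 1.35 exceeded those of the window itself in all 4 genotypes. The flank before the Ciita window had higher calls in 1, 2, 2 and 3 of 41. Higher calls thus went on past the end of the Ciita window, and in Brg1+/+ past that of the class II window.

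In all, 7 regions of the windows were called lower in mTEChi in any genotype, 4 of them in the Ciita window. The like share of all regions was not taken. By genotype in the order above, lower calls made up 1.67%, 3.33%, 3.33% and 0% of the Ciita window. They made up 0.376%, 0%, 0% and 0.752% of the class II window, against 3.65%, 4.22%, 3.75% and 1.5% of all regions. After re-centring, Brg1-/- had 16 lower calls in the class II window and 5 in the Ciita window. At chr16:10472401-10472900 the signal was 8.40 and 9.53 in Aire+/+ mTEChi against 47.4 and 31.0 in mTEClo, and 9.13 and 10.1 against 44.1 and 39.1 in Aire-/-. It was called in both (-1.99 and -2.01), and the values of -1.51 and -1.60 in Brg1+/+ and Brg1-/- were not called. Both calls were lost whichever library was left out (limma adjusted p up to 0.246 in Aire+/+ and 0.165 in Aire-/-). At chr17:34149114-34149613, 49.1 kb into the class II window, Aire+/+ had 5.74 and 1.35 in mTEChi against 29.3 and 56.1 in mTEClo (-3.39, limma adjusted p 0.00796). Without replicate 2 of either sort it was not called (limma adjusted p up to 0.140). There the values in the other 3 genotypes, -1.22, -0.78 and -1.07, were not called.

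As a description over 16 libraries that share their sort, the regions most like chr17:34463668-34464167 were chr17:34449802-34450301 (r = 0.946), chr17:34436282-34436781 (0.938) and chr17:34420542-34421041 (0.937), all within 43.1 kb of it. The fourth was on the other chromosome, chr16:10564769-10565268 in the Ciita window (0.916). For the Ciita region chr16:10569932-10570431 the 2 most alike were in the class II window, chr17:34216510-34217009 (0.888) and chr17:34229013-34229512 (0.880). Pairs of class II regions under 2 kb apart had a median r of 0.56, and pairs over 100 kb apart 0.39. In the Ciita window the medians did not fall steadily with distance, at 0.32 under 2 kb, 0.037 from 20 to 50 kb and 0.36 over 100 kb.

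Between Aire genotypes no single region passed the threshold. In mTEChi 0 of 326 regions were called (limma, against 0.0209% of all regions), and 39 had an unadjusted p under 0.05, against 10.2%. Of those 39, 37 were higher in Aire-/-, while over all regions 49% were higher. In the class II window 192 of 266 regions had a positive log2 fold change and the median was 0.36, and in the Ciita window 42 of 60 with a median of 0.34, against -0.0015 over all regions. The 2 windows thus leaned towards higher signal in Aire-/- mTEChi while all regions did not. The class II levels of the libraries overlapped all the same, at 5.30 and 5.81 against 5.35 and 4.87. The first Aire+/+ mTEChi library (5.35) lay above the lower Aire-/- library (5.30), and the second (4.87) below both Aire-/- libraries. The Aire+/+ mTEChi pair had the lowest r of the 8 groups (0.685), and the number of calls depended on which of the pair was kept. In mTEClo 0 regions were called (limma, against 0% of all regions), 13 had an unadjusted p under 0.05 (against 2.5%), and the class II median was -0.086. The interaction of Aire genotype and sort called 0 of 326 (limma, against 0.000444%), with 26 at an unadjusted p under 0.05 against 5.15%. Of those 26, 24 had a larger sort difference in Aire-/-, against 50.7% of such regions over the whole series.

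The 3 regions with the smallest p for a higher signal in Aire-/- mTEChi lay between 309.9 and 352.1 kb of the class II window. At chr17:34445091-34445590 the signal was 100.01 and 130.13 in Aire-/- against 39.9 and 20.4 in Aire+/+ (log2 fold change 1.96, SE 0.60, limma adjusted p 0.247). At chr17:34409871-34410370 it was 38.2 and 72.8 against 3.95 and 17.0 (2.51, SE 0.78, limma adjusted p 0.252). At chr17:34452065-34452564 it was 60.3 and 86.8 against 33.3 and 4.69 (2.39, SE 0.75, limma adjusted p 0.256). Without Aire+/+ mTEChi replicate 1 it was called (3.69, limma adjusted p 0.0233). In each case both Aire-/- libraries were above both Aire+/+ libraries, and the Aire+/+ libraries were far apart. The region with the smallest p in the other direction was chr16:10483608-10484107 in the Ciita window, with 9.62 and 1.52 in Aire-/- against 30.8 and 25.9 in Aire+/+ (-2.50, SE 0.65, limma adjusted p 0.161). In mTEClo the same region had 28.0 and 25.7 in Aire-/- against 37.8 and 35.7.

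Between Brg1 genotypes 0 regions were called in mTEChi (limma, against 0.0257% of all regions), with 40 at an unadjusted p under 0.05 against 10.7%. Of those 40, 17 were higher in Brg1-/- and 23 lower, whereas 72.9% of such regions were higher over the whole series. The median log2 fold change was -0.097 in the class II window and -0.017 in the Ciita window, against 0.22 over all regions. With re-centring, which takes out that general shift, 3 class II regions were called, all lower in Brg1-/-. The share of all regions called in this contrast after re-centring is not given, so the 3 cannot be set against it. In mTEClo 0 regions were called (limma, against 0.000444%), with 22 at an unadjusted p under 0.05 against 6.15%, and medians of 0.047 and -0.14 against 0.048 over all regions. The interaction of Brg1 genotype and sort called 0 (limma, against 0%), with 26 at an unadjusted p under 0.05 against 7.09%. Of those 26, 21 had a smaller sort difference in Brg1-/-, whereas 69.2% of such regions had a larger one over the whole series.

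**Figure D5:**
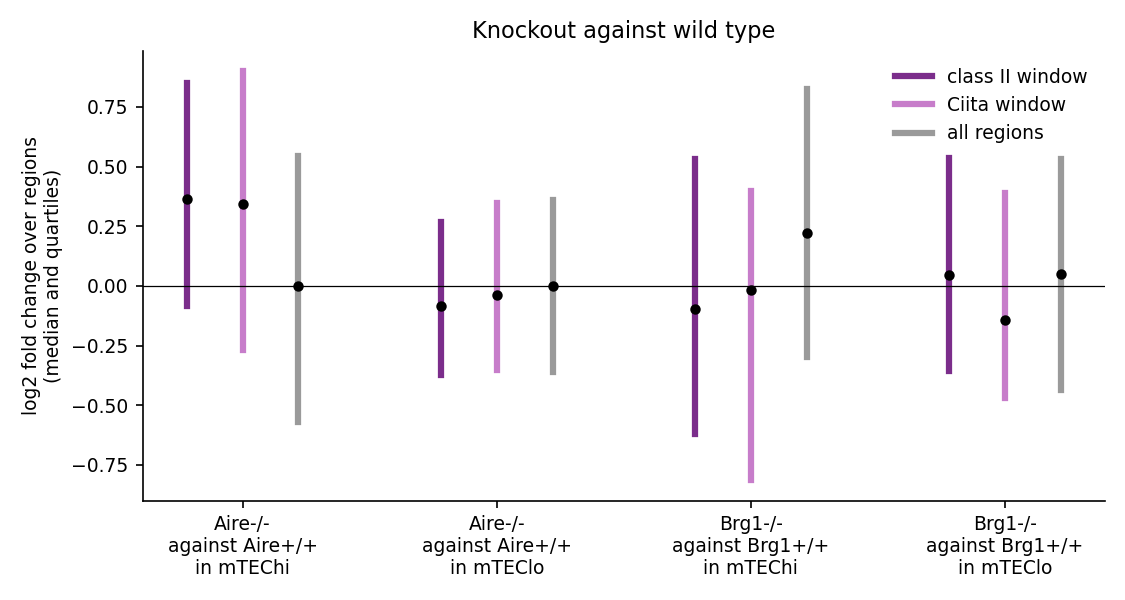
Median (black point) and quartiles (bar) of the log2 fold change of each knockout against its wild type in each sort, for the class II window, the Ciita window and all tested regions. The window medians are 0.36 and 0.34 for Aire-/- in mTEChi, and -0.097 and -0.017 for Brg1-/- in mTEChi against 0.22 for all regions; the values are not re-centred.

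The 3 regions called after re-centring were also those with the smallest p for a lower signal in Brg1-/- mTEChi. At chr17:34351287-34351786 the signal was 6.18 and 11.4 in Brg1-/- mTEChi against 43.3 and 44.2 in Brg1+/+ (log2 fold change -2.25, SE 0.54, limma adjusted p 0.128). The Brg1-/- mTEClo libraries were low as well, at 13.5 and 14.1 against 36.7 and 35.7 (-1.33, SE 0.54, limma adjusted p 0.737), so the 4 Brg1-/- libraries were the lowest of all 16. At chr17:34434561-34435060 it was 74.1 and 65.7 against 147.6 and 153.3 in mTEChi (-1.10, SE 0.27, limma adjusted p 0.137), while in mTEClo it was 139.5 and 123.9 against 128.4 and 71.3. At chr17:34442516-34443015, the second brightest region of the window, it was 221.3 and 344.9 against 394.1 and 491.4 (-0.67, SE 0.18, limma adjusted p 0.170). The last 2 lie in the stretch from 280 to 420 kb, near the brightest region of the window.

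At chr17:34434561-34435060 the sort difference had the opposite sign in Brg1-/- to that in the other 3 genotypes. It was 1.18 in Aire+/+ (limma adjusted p 0.00449) and 1.84 in Aire-/- (3.2e-05), both called higher in mTEChi, and -0.90 in Brg1-/- (0.034), called lower. The Brg1-/- call was lost whichever of its libraries was left out (limma adjusted p up to 0.197), and the Aire+/+ call without replicate 1 of either sort, while the Aire-/- call held. The Brg1+/+ value of 0.65 was not called (0.110). The interaction of Brg1 genotype and sort there was -1.55 (SE 0.38), with an unadjusted p of 0.000279 and a limma adjusted p of 0.388. Of the regions with a higher signal in Brg1-/- mTEChi, the smallest p was at chr17:34171051-34171550, with 38.8 and 38.2 against 4.81 and 8.50 (2.41, SE 0.59, limma adjusted p 0.137). In Aire+/+ mTEChi that region had 35.1 and 47.8, so the Brg1+/+ libraries were the low ones.

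Between the wild types of the lines 0 regions were called in mTEChi (limma, against 0.156% of all regions) and 0 in mTEClo (limma, against 0.0368%). At an unadjusted p under 0.05 there were 47 and 28 regions, against 10.5% and 7.4%. The smallest adjusted p in mTEChi, 0.0808, was at chr17:34171051-34171550, with 35.1 and 47.8 in Aire+/+ against 4.81 and 8.50 in Brg1+/+. The median log2 fold change of Aire+/+ against Brg1+/+ in the class II window was 0.36 in mTEChi, against 0.18 over all regions, and 0.31 in mTEClo, against 0.42. Line and any difference in background or preparation cannot be told apart in these comparisons.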

How the data were processed

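ATAC-seq was run on 16 libraries. The authors deposited 1 table of signal over 250313 regions, with a column per library. Bowtie2, MACS2 and mm9 are named in the submitters' processing notes. The steps behind regions, Tn5 offset, duplicates and library scaling are not given in the sources. The deposited signal values are not counts, so depth is unknown and count models do not apply. Region starts were read as counted from 0 and are printed counted from 1.

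Samples were grouped by their labels. A filter at the 10th percentile of mean signal (7.48) kept 225281 regions and 326 of the 340 in the windows, so 14 were not tested. limma 3.58.1 in R 4.3.3 fitted 1 mean per group to log2(signal + 1) over all 16 libraries (8 residual degrees of freedom, trend and robust variance moderation). Fold changes are on that scale and understate those of low regions. Each of 12 contrasts was tested two-sided, with Benjamini-Hochberg adjustment over all regions and a threshold of 0.05; the procedure was tested on simulated data.

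The windows, their regions and the gene list were chosen with earlier results of these data known. Named regions were any called in a knockout, interaction or wild-type contrast, the 10 largest called sort differences without overlap in each wild type, and the 5 with the highest mean log2 signal per window. To these were added the 3 smallest p per direction in each knockout contrast, the 5 with the smallest spread of group means per window, and the regions most like the one with the largest difference. Regions called in all 4 genotypes or lower in mTEChi were named after their values were seen, and the text gives a subset. Alternatives were a pseudocount of 0.5 or 5, no filter or one at the 50th percentile, quantile or cyclic loess normalization, re-centring on the median, quality weights, a replicate block, only the libraries of a contrast, and leaving out each library.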

Additional observations from a re-analysis of the deposited data

Results flagged for a closer look

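At chr17:34434561-34435060 in the class II window, the difference between mTEChi and mTEClo had opposite signs in different genotypes, and every library followed the sign of its group. It was 1.18 in Aire+/+ and 1.84 in Aire-/-, and -0.90 in Brg1-/-, all called by limma. The Brg1-/- call was lost without any 1 of its libraries (limma adjusted p up to 0.197). The difference between the Aire genotypes and Brg1-/- was not tested, and the interaction of Brg1 genotype and sort, with a limma adjusted p of 0.388, was not called.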

How the results depend on the processing

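With 2 libraries per group, single regions are measured with little precision, and depth is unknown. Both the scaling and single libraries moved the counts. Of regions called between the sorts, Aire+/+ had 61, and 35 after re-centring on the median or 33 with only its own libraries in the fit. Over all regions its calls went from 19806 to 19320 and 9386. Brg1+/+ had 60, and 23 with quantile normalization, 37 with cyclic loess normalization and 37 with re-centring. Over all regions its calls went from 29209 to 16865, 23110 and 24932, in the same order. Brg1-/- had 40, and 13 with quantile normalization, 14 with cyclic loess normalization, 26 with quality weights and 18 with only its own libraries. Over all regions its calls went from 18268 to 9586, 8413, 12732 and 11242, in the same order. Aire-/- kept within 1.5 times of its 121 under each of these settings. Regions called in all 4 genotypes numbered 14, and from 2 (re-centring) to 16 (50th percentile filter) otherwise. For Brg1-/- against Brg1+/+ in mTEChi, re-centring gave 3 in place of 0, with no count over all regions to set beside it. The cause of these moves was not tested, except that re-centring removes the general shift by construction. Leaving out 1 library gave 23 to 45 sort calls in Aire+/+, 34 to 69 in Aire-/-, 24 to 31 in Brg1+/+ and 8 to 24 in Brg1-/-, the lowest without Aire+/+ mTEClo replicate 2, Aire-/- mTEChi replicate 2, Brg1+/+ mTEClo replicate 2 and Brg1-/- mTEChi replicate 2. It also changed the count for Aire-/- against Aire+/+ in mTEChi and between the wild types in mTEChi, and left the other 6 comparisons unchanged. No share over all regions was taken for the fits without 1 library.

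The differences in mean level between the sorts moved by more than the spread of the libraries as follows. In the class II window, re-centring took the difference from 1.00 to 0.68 in Aire+/+, from 0.97 to 0.50 in Brg1+/+ and from 0.86 to 0.10 in Brg1-/-. Quantile normalization gave 0.51 in Brg1+/+ and 0.24 in Brg1-/-, cyclic loess normalization 0.59 and 0.30, and a pseudocount of 5 gave 0.72 in Brg1+/+ and 1.26 in place of 1.54 in Aire-/-. In the Ciita window, re-centring took the difference from 0.58 to 0.26 in Aire+/+, from 0.92 to 0.45 in Brg1+/+ and from 0.84 to 0.080 in Brg1-/-. Quantile normalization gave 0.40, 0.46 and 0.21 there, cyclic loess normalization 0.45, 0.53 and 0.26, and a pseudocount of 5 gave 0.47, 0.68 and 0.64. Of the knockout differences, re-centring took Brg1-/- against Brg1+/+ in mTEChi from -0.029 to -0.48 in the class II window and from -0.11 to -0.56 in the Ciita window, where quantile and cyclic loess normalization gave -0.34 and -0.36. In mTEClo the class II value of 0.080 became 0.054 with a pseudocount of 5, 0.014 and 0.0056 with quantile and cyclic loess normalization, and -0.080 with re-centring. Aire-/- against Aire+/+ in mTEChi rose from 0.37 to 0.53 in the Ciita window with re-centring.

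No region chosen by the naming rule changed sign under any alternative run in the contrast it was named for. Libraries with the same replicate number did not deviate together (r from -0.018 to 0.034), so the numbers were not taken as pairs. A fit with the replicate block gave 56, 121, 58 and 39 sort calls in Aire+/+, Aire-/-, Brg1+/+ and Brg1-/-, and 0 in the other 8 comparisons.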
